A study of Homo sapiens with 3 samples.

Results

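The cells described here are BxPC-3 cells with a high level of interferon-stimulated RNA and no detected RNA of 3 genes that mark interferon and chemokine production. BxPC-3 is a long-used human carcinoma line from the exocrine pancreas. The cells were chosen by a score, the summed unique molecular identifiers (UMIs, 1 per captured RNA molecule) of ISG15, IFI6, IFIT1, IFIT3 and MX1 per 10000 UMIs of the cell. Of the top 10% of 5640 pooled cells by this score, 290 had 0 UMIs of IFNL1, CCL5 and CXCL11 and are called responding cells below. The other 274 score-high cells had at least 1 such UMI and are called excluded cells. Of these, 265 had a UMI of CXCL11, 87 of CCL5 and 55 of IFNL1. CXCL11 was the only such gene detected in 164 of them, and 37 had just 1 such UMI. The remaining 5076 cells are called lower-score cells, and the 2 groups of non-members together are the 5350 other cells.

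The study asked how cell-in-cell formation, in which one living carcinoma cell enters another, relates to the transcriptome of pancreatic carcinoma cells. Cells stably expressing EGFP or mCherry were mixed in equal number and held in suspension, which induces cell-in-cell structures, and the suspended cells were then sorted. Cells with both signals formed the double-positive group and cells with either 1 of the signals the single-positive group, and parental BxPC-3 cells were the third group. Each group gave 1 droplet library made with the 5' version of the 10x Chromium kit, from cells that had been expanded in culture. The whole series is thus 1 line, the 3 libraries are different conditions, and no condition has a second library. In double-positive droplets, an inner and an outer cell captured together and 2 unrelated cells in 1 droplet cannot be told apart.

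Type I interferons (interferon beta and the alpha family) and type III interferons (the lambda family, including IFNL1) bind different receptors but activate the same kinases, JAK1 and TYK2. These phosphorylate STAT proteins, which join IRF9 to form the factor ISGF3. ISGF3 binds interferon-stimulated response elements in promoters and switches on antiviral genes. Cells that sense viral or displaced nucleic acids make interferon through IRF3, IRF7 and NF-kB, and chemokines such as CCL5, CXCL10 and CXCL11 accompany it. CXCL11 and CXCL10 are also interferon-stimulated genes, so leaving out cells with CXCL11 RNA also leaves out cells by a response gene.

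The promoters of the 5 score genes are shown because they carry the element through which ISGF3 acts. RefSeq promoter windows of build GRCh38.p14, from 250 bases before to 50 bases after the transcript start, were searched on both strands for the core GAAANNGAAA, which reads TTTCNNTTTC on the other strand. Overlapping matches were counted separately. In each sequence the matches are in capitals, and the sequence is read on the strand of the gene.
ISG15: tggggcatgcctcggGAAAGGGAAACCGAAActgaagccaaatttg
IFI6: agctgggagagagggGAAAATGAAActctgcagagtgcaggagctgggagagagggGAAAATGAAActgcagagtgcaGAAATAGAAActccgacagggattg
IFIT1: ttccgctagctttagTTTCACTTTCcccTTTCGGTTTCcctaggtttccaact
IFIT3: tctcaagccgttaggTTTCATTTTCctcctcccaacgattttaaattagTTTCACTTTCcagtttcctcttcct
MX1: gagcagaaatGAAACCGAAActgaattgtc

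The ISG15 stretch lies at chr1:1013369-1013414 on the plus strand and the IFI6 stretch at chr1:27672261-27672363 on the minus strand. IFIT1 (chr10:89392492-89392544) and IFIT3 (chr10:89327826-89327899), of one gene cluster and both on the plus strand, encode proteins that bind viral RNA. The MX1 stretch, at chr21:41420559-41420588 on the plus strand, starts its match 12 bases into the transcript, in the first bases of the 5' UTR. All 5 score genes had a match, 2 in ISG15, 3 in IFI6, 2 in IFIT1, 2 in IFIT3 and 1 in MX1. Of the first listed windows of 27305 genes, 996 held a match (3.65%). For the longer list of interferon-stimulated genes below, 52 of 69 had a window, which is under 80%, so a share of matches over that list would be void and is not given. A match is a description of the letters and does not show that a factor binds.

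Total depth was 65107147 UMIs in the parental, 51637677 in the single-positive and 62517276 in the double-positive library, and cells held 97.7% to 98.0% of it. Cells were barcodes with at least 6500 UMIs and 500 genes and at most 20% mitochondrial UMIs. The parental library had 2409 cells with a median of 23290 UMIs, the single-positive library 1291 with 38137 and the double-positive library 1940 with 29963.5. The carcinoma label was checked against 9 markers of ductal carcinoma epithelium, and all 9 were detected in responding cells, with 70613 UMIs in all. Markers of other cell types were almost absent there. Among 9 leukocyte markers 5 had 0 UMIs in responding cells, PTPRC among them, and 47 of the list's 52 UMIs were CD14. The 5 markers of plasmacytoid dendritic cells, which specialise in making interferon, gave 4 UMIs, the 6 fibroblast markers 27, the 5 endothelial markers 5 and the 4 erythroid markers 2. Only 8 barcodes occurred in 2 libraries, and none of them was a responding cell.

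The values that chose the cells are given as a description, with no test. In counts per 1000000 UMIs summed over the responding cells of a library (CPM), ISG15, a ubiquitin-like modifier, had 3280 in the parental, 2616 in the single-positive and 3071 in the double-positive library. In the other cells ISG15 had 1361, 1058 and 1292 CPM. IFI6, a membrane protein that restricts virus replication, had 5262, 5344 and 5415 CPM in responding and 2392, 2133 and 2718 CPM in other cells. In IFI6 the responding cells lay within a narrow range in the 3 libraries, and above the 4270, 4376 and 4493 CPM of the excluded cells. IFIT1 had 178, 83.9 and 180 CPM in responding cells against 465, 515 and 436 CPM in excluded cells. IFIT3 had 164, 58.2 and 151 CPM against 587, 747 and 565 CPM. MX1, a GTPase that blocks virus particles, had 228, 240 and 201 CPM against 305, 391 and 253 CPM. The responding cells thus had less of ISG15, IFIT1, IFIT3 and MX1 than the excluded cells in all 3 libraries, and single-positive responding cells were low in IFIT1 and IFIT3. By the rule, IFNL1, CCL5 and CXCL11 were at 0 in responding cells. In excluded cells CXCL11 had 529, 471 and 372 CPM, CCL5 178, 440 and 131 CPM and IFNL1 64.9, 164 and 34.3 CPM.

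IFI6 made up 59.3% of the score UMIs of responding cells and ISG15 34.7%, while IFIT1, IFIT3 and MX1 gave 1.90%, 1.65% and 2.40%. All 5 score genes were detected in 176 of 290 responding cells (60.7%) and in 33.2% of lower-score cells. In 251 responding cells IFI6 had more UMIs than ISG15. The score of responding cells had a median of 83.2 and ran from 71.2 to 356, against a median of 38.4 over all pooled cells. The last cell inside had a score of 71.19 and the first outside 71.14. Within 5 score units of the edge lay 62 responding cells above it and 155 lower-score cells below it. The rule takes a fixed share of a ranked score, so the class is a range of that score, and whether it forms a type was not tested. To see how far the choice repeated in other UMIs, each cell's UMIs were divided at random into 2 parts. The 315 cells chosen on one part had a median score of 85.3 there and of 84.1 in the other part, against 37.1 for the remaining cells. Of those 315 cells, 30 (9.52%) had a UMI of IFNL1, CCL5 or CXCL11 in the other part, against 11.2% of the remaining cells. The remaining cells hold the score-high cells left out for such UMIs, and depth was not made equal, so these shares are not a like comparison.

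In the parental library 150 of 2409 cells were responding cells (6.23%, exact 95% interval 5.29% to 7.27%). The single-positive library had 21 of 1291 (1.63%, 1.01% to 2.48%). The double-positive library had 119 of 1940 (6.13%, 5.11% to 7.30%). The single-positive share lay below both others, whose intervals overlapped. These intervals cover counting error only, and with 1 library per condition the difference has no replicate check. The share of all score-high cells, excluded cells included, had the same order, with 11.7%, 4.26% and 11.7%.

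**Figure D1:**
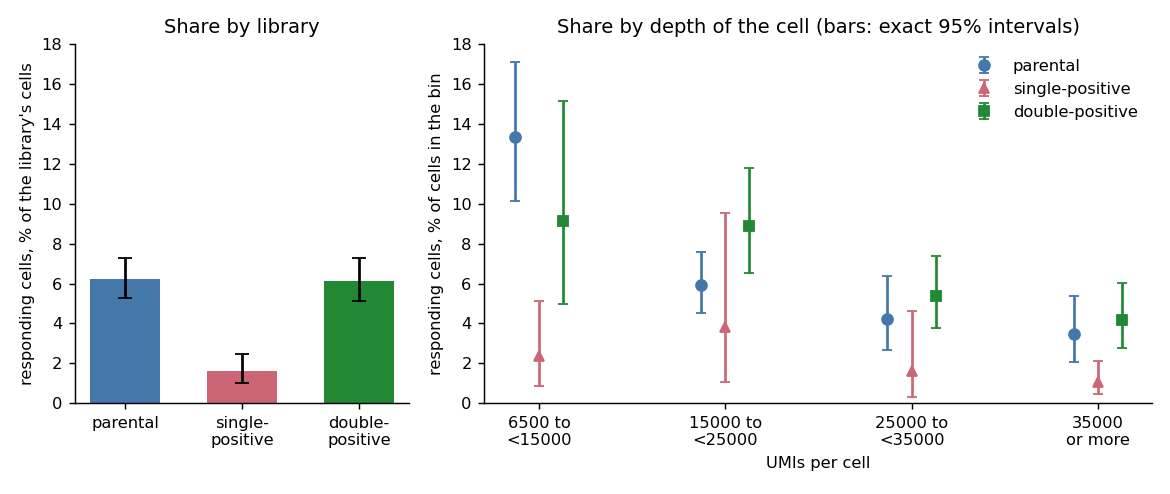
Left, responding cells as a percentage of the cells of each library. Right, the same percentage within 4 ranges of UMIs per cell, with points for parental (circles), single-positive (triangles) and double-positive (squares) cells and exact 95% binomial intervals as bars. The single-positive library had the lowest share, 1.63%, and the parental share fell from 13.3% in the shallowest cells to 3.45% in the deepest.

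Depth differed between the classes. Responding cells had medians of 19083, 27779 and 25853 UMIs in the parental, single-positive and double-positive libraries, and other cells 23632, 38310.5 and 30139. Over the pooled libraries the share was 9.07% of cells with 6500 to under 15000 UMIs, 6.70% from there to under 25000, 4.44% from there to under 35000 and 2.77% at 35000 or more. These pooled shares also reflect which library the cells came from, as 749 of 1291 single-positive cells were in the deepest range. Within libraries, in the same order of ranges, the share was 13.3%, 5.92%, 4.25% and 3.45% in parental, 2.39%, 3.85%, 1.60% and 1.07% in single-positive and 9.15%, 8.88%, 5.37% and 4.19% in double-positive cells. Of the score-high cells, 68.9% had 0 UMIs of the excluded genes in the shallowest range and 37.6% in the deepest. In each of the 4 ranges the single-positive share was below both others, with overlapping intervals in part of them. When all cells were thinned to 6500 UMIs and chosen again, the shares were 7.35%, 2.87% and 7.84%. The part of depth in the score itself was not tested.

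By expression, in thinned cells, of the S phase and the G2 and mitosis lists used below, 62.4% of responding cells were called G1. Of other cells 43.5% were. S was called in 7.24% against 14.8% and G2 or mitosis in 30.3% against 41.6%. The G1 share was 62.7%, 52.4% and 63.9% in the responding cells of the parental, single-positive and double-positive libraries and 45.9%, 38.3% and 44.3% in the other cells. The median mitochondrial share was 1.11%, 1.57% and 2.04% of UMIs in responding cells and 0.936%, 1.28% and 2.08% in other cells.

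Interferon-stimulated genes that the score did not use rose together in the responding cells. UMIs were summed over cells within each library and tested with edgeR's quasi-likelihood test with the library as a block and Benjamini-Hochberg adjustment over all genes. Of 69 further antiviral and ISGF3-driven genes, 68 passed the filter on low counts, and 56 were higher in responding than in other cells at an adjusted p of at most 0.05. No member was called lower by edgeR, and DESeq2 called 42 higher and 0 lower. At an unadjusted level the test over all 13675 genes gave 1168 higher and 1192 lower genes, and after adjustment 484 higher (3.54%) and 368 lower (2.69%). The list's median log2 fold change was 0.66, against -0.01 over all genes. These p-values measure only how the class difference varies between 3 libraries of 1 line. The fit had 2 residual degrees of freedom, beside 30.05 prior ones that come from the spread of the other genes. Very small p-values thus rest mostly on that shared spread. The 12 remaining members of the list did not pass. The list covaries with the score genes, so its direction is not independent of the choice of cells. In the cells chosen on one part of their UMIs and measured in the other part, 47 of 68 were higher with a median of 0.63. Over all genes, 368 of 12673 were higher there.

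Among the highly expressed members, IFI27, a mitochondrial and nuclear envelope protein, had 7808, 7694 and 8071 CPM in responding cells and 6236, 5210 and 6034 CPM in other cells. IFI27 was higher in every library, by 0.43 ± 0.05 (SE) on the log2 scale (edgeR adjusted p = 5.5e-08). IFITM1, a membrane protein that blocks virus entry, had 2175, 1955 and 1920 CPM against 1327, 1030 and 1224 CPM. Its log2 fold change was 0.75 ± 0.06, with no overlap between the groups. OAS1, which makes the second messenger that activates RNase L, had 276, 246 and 244 CPM against 115, 104 and 98.8 CPM, a log2 fold change of 1.27 ± 0.08. USP18, the protease that removes ISG15 and damps receptor signalling, had 64.3, 58.2 and 44.6 CPM against 19.8, 19.2 and 15.5 CPM. With 1.61 ± 0.11 it was the highest of the list (edgeR adjusted p = 3.7e-12). SAMD9L, a restriction factor, had 46.4, 41.1 and 40.8 CPM against 16.6, 15.4 and 15.6 CPM. RSAD2, the radical enzyme viperin, had 41.6, 39.4 and 28.2 CPM against 15.2, 14.0 and 11.6 CPM. For USP18, SAMD9L and RSAD2 the lowest responding value lay above the highest value of other cells.

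Of the genes of ISGF3 itself, STAT2 had 34.8, 24.0 and 20.7 CPM in responding cells against 18.3, 19.3 and 17.5 CPM in other cells, a fold change of 0.58 ± 0.14 on the log2 scale (edgeR adjusted p = 0.0099). IRF9 had 13.4, 13.7 and 10.0 CPM against 8.08, 7.96 and 7.81 CPM and did not pass (0.59 ± 0.21, edgeR adjusted p = 0.11). OAS1, MX2, IFI44L, HERC5, ZC3HAV1, STAT2, IRF9, HLA-B, TAP1, EIF2AK2 and, further below, S100A7, CSF3, NFKBIA, TNFAIP2, BIRC3, SAA1, BBC3 and MT-ND1 were chosen for naming after their values were seen.

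**Figure D2:**
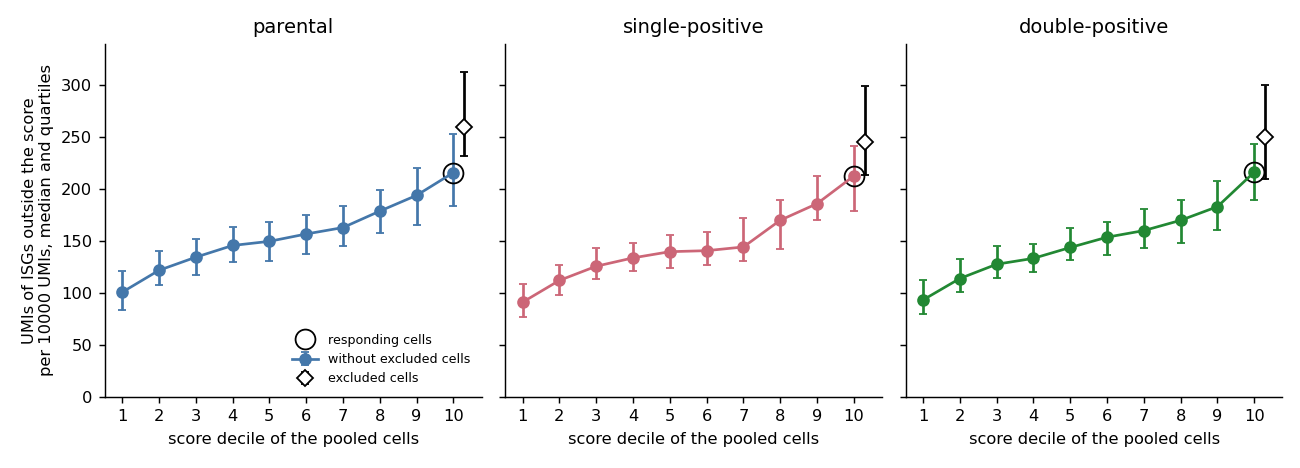
Summed UMIs of the 69 interferon-stimulated genes outside the score per 10000 UMIs of a cell (median, with quartiles as bars) by decile of the score over all pooled cells, in each library. Filled points leave out the excluded cells, which are shown as diamonds beside decile 10, and open circles ring the responding cells. The median rose from 101 in decile 1 to 216 in the parental responding cells, and the excluded cells lay higher, at 260.

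The rise was gradual over the whole range of the score. In parental cells the median of the summed list was 101 UMIs per 10000 in the lowest score decile, 150 in the fifth, 194 in the ninth and 216 in responding cells. In single-positive cells these medians were 91.1, 140, 186 and 213, and in double-positive cells 93.3, 144, 183 and 217. The responding cells lay above the median of the lower-score cells of their library in 141 of 150 parental cases, 20 of 21 single-positive and 115 of 119 double-positive cases. Within each library the rank correlation of the score and the list's sum was 0.67, 0.65 and 0.66 over all 2409, 1291 and 1940 cells. Both measures are divided by the same cell's total UMIs. Free RNA carried these transcripts too. In barcodes with at most 100 UMIs, ISG15 had 1467, 899.5 and 1329 CPM in the 3 libraries, beside 1361, 1058 and 1292 CPM in the other cells. Its part in the differences was not tested.

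Because the other cells include the excluded cells, the responding cells were also compared with lower-score cells alone. Then 547 of 13605 genes were higher (4.02%) and 427 lower (3.14%), and 62 of 68 list members were higher with a median log2 fold change of 0.82. All 68 had a fold change above 0, against 6712 of all 13605 genes tested. In 62 of the 68 the responding cells lay above the lower-score cells in each of the 3 libraries, a pattern that was not counted over all genes. RSAD2 had the highest fold change, 2.76 ± 0.18 on the log2 scale, with 6.77, 4.85 and 4.13 CPM in lower-score cells. IFIT2, an RNA-binding partner of IFIT1 and IFIT3, had 21.3, 22.0 and 10.8 CPM in lower-score cells and 51.1, 13.7 and 84.1 CPM in responding cells. IFIT2 was higher in 2 of 3 libraries and lower in the single-positive library, and 35.8% of its UMIs in responding cells came from 1 cell. With G1 cells only, 274 of 12314 genes were higher than in other cells (2.23%) and 118 lower (0.958%), and 41 of 68 list members were higher with a median of 0.62. Within a shared range of depth, from 15172.5 to 31131 UMIs per cell, 107 of 10374 genes were higher (1.03%) and 16 lower (0.154%). There 27 of 68 list members were higher with a median of 0.62. This range runs from the lower to the upper quartile of the responding cells' own UMIs, so responding cells outside it were left out. How much of the lower counts of called genes goes with depth and how much with fewer cells was not tested.

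**Figure D3:**
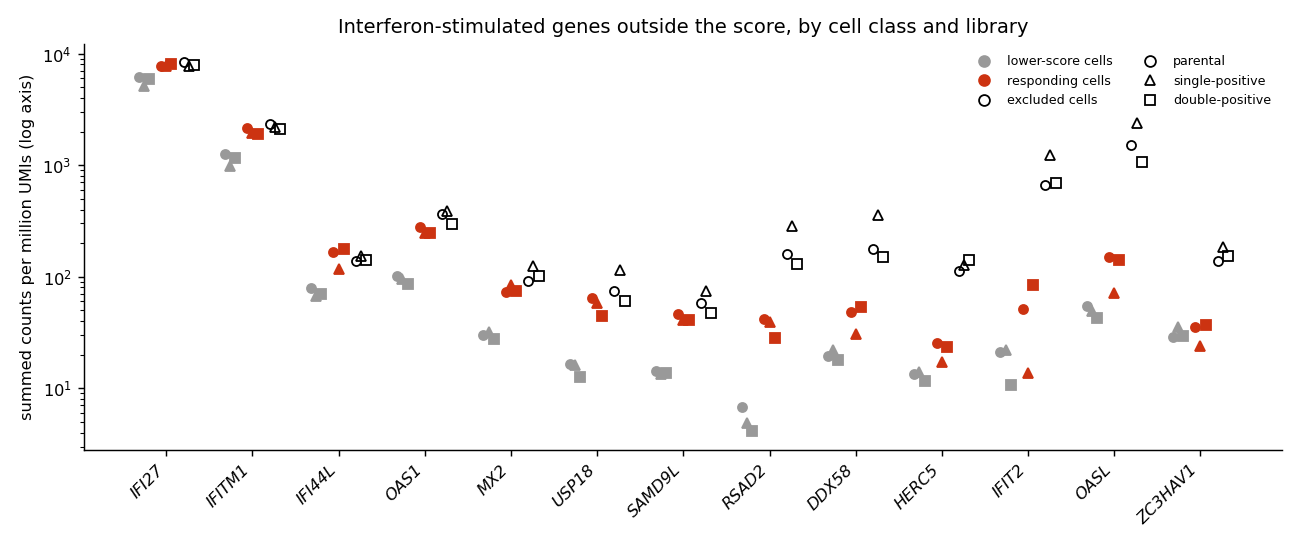
Summed counts per 1000000 UMIs, on a log axis, of 13 interferon-stimulated genes outside the score in lower-score cells (grey), responding cells (red) and excluded cells (open black), with 1 symbol shape per library. For IFI27, IFITM1 and IFI44L the responding cells lie near the excluded cells. For OASL they lie at 151, 71.9 and 141 CPM, far below the 1501, 2381 and 1075 CPM of the excluded cells.

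Against the excluded cells, most of these genes were at a lower level in the responding cells. Of 10542 genes tested between them with edgeR, 59 were higher in responding cells (0.560%) and 149 lower (1.41%), with the 3 excluded genes and the 5 score genes left out of both counts. Of the 68 interferon-stimulated genes outside the score, 0 were higher and 21 lower, with a median log2 fold change of -0.37 against 0.01 over all genes. DESeq2 called 0 higher and 15 lower. Since the excluded cells were defined by CXCL11, CCL5 and IFNL1, genes that covary with those are partly fixed by the rule. The classes also differed in score and depth. Pooled median scores were 83.2 in responding and 99.3 in excluded cells, and median UMIs 21564 and 27066. In thinned cells 0 of 63 tested interferon-stimulated genes outside the score were higher and 13 lower, with a median of -0.35. The part of the higher score in these differences was not tested. In 46 of the 68 genes the responding cells were below the excluded cells in each library, and in 2 they were above them in each. These patterns were not counted over all genes. By the fit, 7 of the 68 had a fold change above 0, against 5458 of all 10542 genes. A gene that did not pass is not shown to be alike in both. In simulated data for this comparison, with the same spread set for every gene, 48% of genes set about 1.5-fold lower were called.

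The difference was largest for OASL and IFIT2. OASL, which strengthens RIG-I signalling, had 151, 71.9 and 141 CPM in responding cells and 1501, 2381 and 1075 CPM in excluded cells. It fell by 3.57 ± 0.28 on the log2 scale (edgeR adjusted p = 9.6e-05), and its levels in the 2 classes did not overlap. IFIT2 had 51.1, 13.7 and 84.1 CPM in responding cells and 657, 1239 and 696 CPM in excluded cells, a change of -3.81 ± 0.34 (edgeR adjusted p = 0.00022). HERC5, the ligase that attaches ISG15 to proteins, had 25.3, 17.1 and 23.2 CPM against 113, 127 and 142 CPM. ZC3HAV1, which binds CpG-rich viral RNA, had 35.2, 24.0 and 37.0 CPM against 139, 186 and 154 CPM. In lower-score cells ZC3HAV1 had 29.1, 35.5 and 29.1 CPM, and its difference from responding cells did not pass (0.20 ± 0.13, edgeR adjusted p = 0.44). RSAD2 was intermediate, with 161, 287 and 131 CPM in excluded cells.

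The RNA sensors followed the same order. DDX58, which encodes the sensor RIG-I, had 48.3, 30.8 and 53.6 CPM in responding, 19.5, 22.1 and 17.95 CPM in lower-score and 176, 357 and 149 CPM in excluded cells. IFIH1, which encodes the sensor MDA5, had 56.3, 49.6 and 43.3 CPM, 20.8, 23.4 and 20.7 CPM and 122, 208 and 130 CPM. In both genes the 3 classes did not overlap. These were the 2 of 12 sensors and adaptors higher in responding than in other cells, with log2 fold changes of 0.79 ± 0.13 and 0.87 ± 0.12, and the other 10 did not pass. The adaptor kinase TBK1 and the factor IRF3 had 0.22 ± 0.12 and 0.03 ± 0.09.

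For another group of genes no difference from the excluded cells passed the test. IFI44L had 167, 118 and 178 CPM in responding and 139, 154 and 141 CPM in excluded cells, a log2 fold change of 0.10 ± 0.14 (edgeR adjusted p = 0.84). IFI27 had -0.06 ± 0.06 and IFITM3 -0.10 ± 0.06. MX2, which restricts viruses at the nuclear pore, had 72.9, 83.9 and 74.7 CPM against 92.3, 124 and 101 CPM in excluded cells and 29.96, 31.8 and 27.4 CPM in lower-score cells. Its change against excluded cells was -0.46 ± 0.11 (edgeR adjusted p = 0.078). OAS1, with a change of the same size, passed narrowly (-0.46 ± 0.10, edgeR adjusted p = 0.043).

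**Figure D4:**
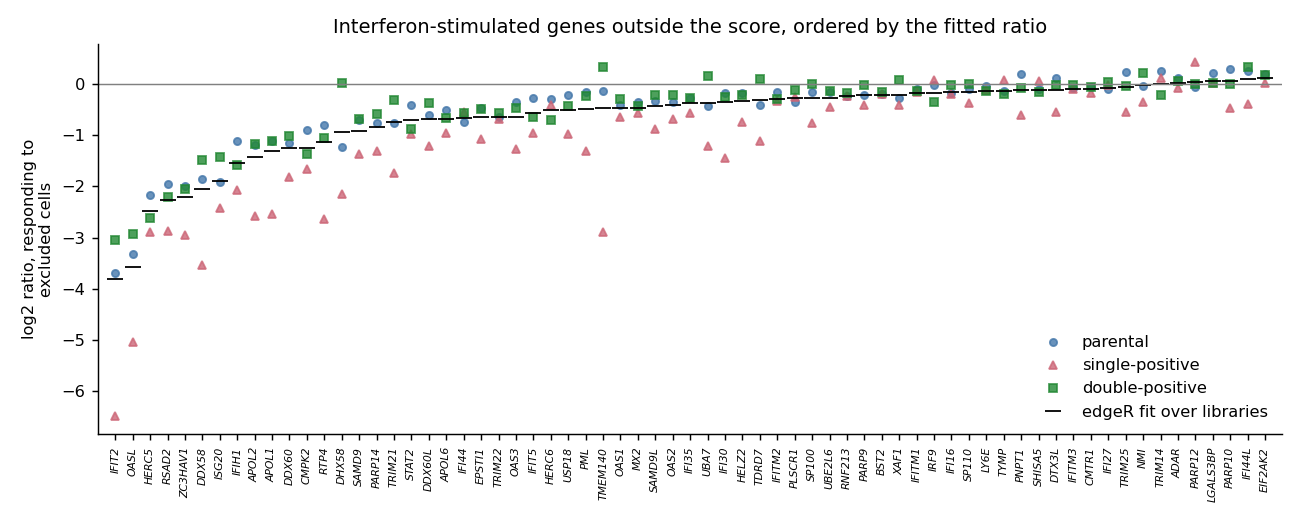
Log2 ratio of responding to excluded cells for tested interferon-stimulated genes outside the score, all but 1 of the 68, ordered by the ratio fitted with edgeR (black dashes), with each library's own ratio of CPM as a symbol. The fitted ratio ran from -3.81 for IFIT2 to 0.12 for EIF2AK2. The single-positive library, with 21 responding and 34 excluded cells, lies lowest for most genes at the left, as for IFIT2.

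The promoters of HERC5 and of the chemokine CXCL10, both far lower in responding than in excluded cells, are shown because they held the same core as the score genes.
CXCL10: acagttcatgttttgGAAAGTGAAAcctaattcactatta
HERC5: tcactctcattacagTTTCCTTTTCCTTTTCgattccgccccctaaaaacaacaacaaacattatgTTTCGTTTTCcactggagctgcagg

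The CXCL10 stretch is at chr4:76023694-76023733 on the minus strand, with 1 match, and the HERC5 stretch at chr4:88456979-88457069 on the plus strand, with 3 matches.

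CXCL10, the chemokine that recruits T cells through CXCR3, was not used by the rule. It had 47.3, 13.7 and 8.47 CPM in responding cells, 596, 660 and 339 CPM in excluded cells and 21.3, 12.99 and 12.2 CPM in lower-score cells. Against excluded cells it fell by 4.46 ± 0.27 on the log2 scale (edgeR adjusted p = 3.5e-05). Against all other cells it had -0.77 ± 0.18 (edgeR adjusted p = 0.0058), and against lower-score cells alone the direction turned, to 0.55 ± 0.19, which did not pass (edgeR adjusted p = 0.074). CXCL10 was detected in 28 of 290 responding cells, and 1 cell held 62.3% of its UMIs. The name of the cells therefore covers the 3 excluded genes and not every chemokine. Free RNA held 306, 43.3 and 121 CPM of CXCL10, and its part was not tested.

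Of 21 interferon, ligand and receptor genes, 12 were tested against other cells, 1 was higher and 2 were lower. TNFSF10, the death ligand TRAIL, had 33.6, 18.8 and 33.3 CPM in responding and 20.9, 18.5 and 20.7 CPM in other cells (0.62 ± 0.13, edgeR adjusted p = 0.0021). In the single-positive library its 2 values were close. IFNGR2, a chain of the interferon gamma receptor, had 75.1, 70.2 and 64.3 CPM against 94.7, 88.7 and 93.1 CPM (-0.42 ± 0.10, edgeR adjusted p = 0.0056), and CXCL10 was the second lower gene. IFNB1, the gene of interferon beta, had 0 UMIs in responding cells and 5.43, 26.01 and 7.56 CPM in excluded cells. IFNB1 was detected in 0.758%, 2.94% and 1.85% of thinned excluded cells, so these levels rest on few cells. The receptor chains for type I interferon did not pass, with 16.9, 25.7 and 17.3 CPM against 19.7, 20.8 and 21.0 CPM for IFNAR1 and 24.9, 29.1 and 28.9 CPM against 32.6, 28.3 and 32.9 CPM for IFNAR2. IL10RB, shared by the lambda receptor, had 16.9, 11.98 and 9.41 CPM against 9.91, 9.86 and 9.66 CPM (0.39 ± 0.21, edgeR adjusted p = 0.33). IFNLR1, the other chain of that receptor, had 8 responding cells with a UMI. JAK1 and TYK2 had log2 fold changes of 0.09 ± 0.09 and 0.05 ± 0.22 and JAK2 0.12 ± 0.29. IFNGR1 had 0.05 ± 0.10. IFNL2, IFNL3, IFNG, IFNE, IFNK and CXCL9 had 0 UMIs in responding cells. They were rare elsewhere too. In thinned cells IFNG and IFNE were detected in 0% of every class and IFNK in at most 0.162% of lower-score cells. CXCL9, IFNL2 and IFNL3 reached at most 3.03%, 1.85% and 1.85% of the excluded cells of a library.

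Among feedback genes, USP18 was the 1 of 8 that was higher, and the other 7 did not pass. SOCS3, a suppressor of cytokine signalling, had 0.05 ± 0.18 and the phosphatase PTPN2 had -0.21 ± 0.12.

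HLA class I genes, whose products show peptides to T cells, were higher in 11 of 20 tested members, with a median log2 fold change of 0.39 and none lower. With G1 cells only, 9 of 20 were higher, and within the shared depth range 5 of 20, with a median of 0.34. HLA-B had 678, 683 and 701 CPM in responding and 336, 353 and 435 CPM in other cells, 0.88 ± 0.07 on the log2 scale. B2M, the shared light chain, had 7863, 7708 and 8442 CPM against 6325, 5351 and 6579 CPM (0.39 ± 0.05). TAP1, the peptide transporter, had 63.3, 97.6 and 59.9 CPM against 36.1, 39.5 and 35.9 CPM (0.88 ± 0.11). Each was higher in all 3 libraries without overlap. HLA-C had 0.53 ± 0.06, and reads shared between HLA genes may have been assigned to either. The chaperones CALR and PDIA3 had -0.04 ± 0.06 and 0.05 ± 0.06. Against excluded cells 0 of 20 members differed by edgeR, where 0.560% of all genes were called higher and 1.41% lower. The list's median log2 fold change there was -0.20, with 2 of 20 members above 0, against 5458 of all 10542 genes. The levels in the 2 classes are thus not shown to be alike.

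Genes known from interferon gamma responses were higher in 8 of 15 tested members, with a median of 0.52. By library, the median log2 ratio was 0.54 in the parental and 0.57 in the double-positive library but -0.26 in the single-positive library, where 7 of 15 lay above other cells. Within the shared depth range 0 of 10 tested members were called, with a median of 0.45. GBP1, a guanylate-binding GTPase, had 96.2, 101 and 71.5 CPM against 42.3, 41.0 and 37.0 CPM (1.12 ± 0.10). WARS, a tRNA synthetase, had 217, 178 and 212 CPM against 152, 134 and 143 CPM, and 721, 678 and 532 CPM in excluded cells. It was thus above other and far below excluded cells, by -1.67 ± 0.12 (edgeR adjusted p = 5.2e-05). IRF1 had 0.52 ± 0.09, and ICAM1, with 0.25 ± 0.14, did not pass.

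**Figure D5:**
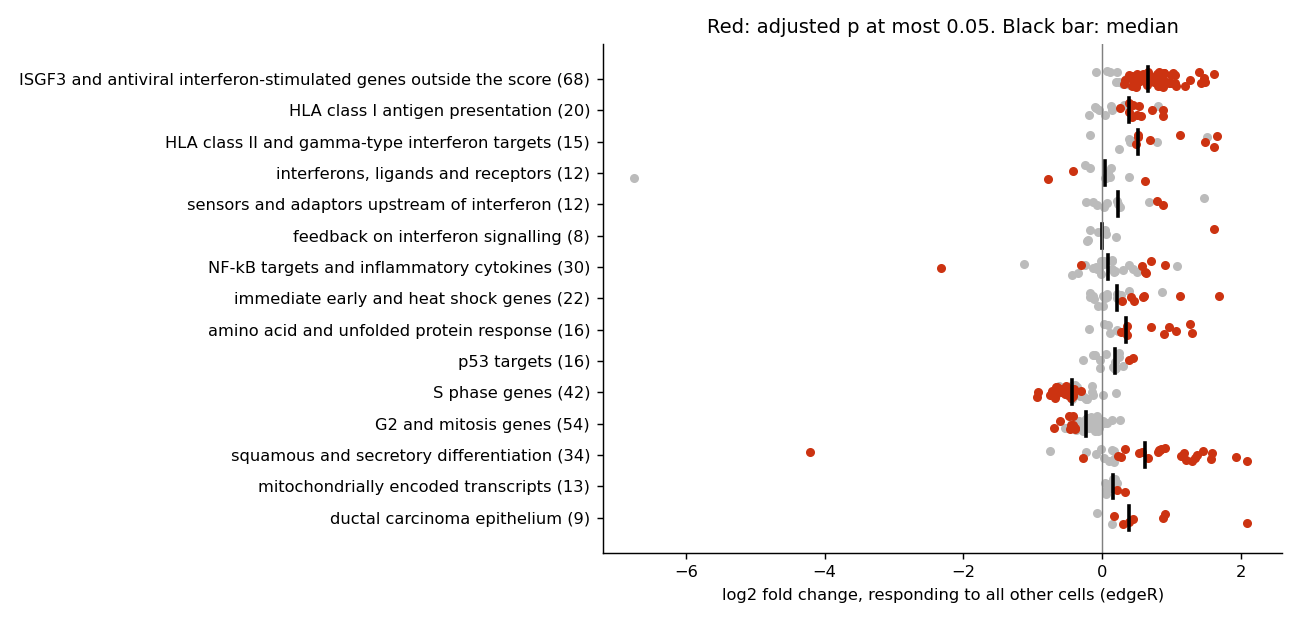
Log2 fold change of responding cells against all other cells (edgeR) for each tested gene of 15 lists, with the number tested in brackets. Red points had an adjusted p of at most 0.05 and black bars are medians. The interferon list lies to the right with a median of 0.66, the S phase list to the left with -0.43, and the squamous and secretory list spreads from -4.21 (S100A7) to 2.09 (MUC1). S100A7 was detected in at most 0.584% of the thinned cells of any class in a library. The grey point farthest left is IFNB1, with 0 UMIs in responding cells, whose fitted value is no bound.

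Of 34 tested squamous and secretory differentiation genes, 22 were higher in responding than in other cells and 2 lower, with a median of 0.62. By library, the median log2 ratio was 0.64 in the parental (28 of 34 above 0), 0.10 in the single-positive (18 of 34) and 0.53 in the double-positive library (25 of 34). With G1 cells only, 14 of 34 were higher and 1 lower, and within the shared depth range 13 of 32 were higher and 0 lower. MUC1, a membrane mucin, had 47.0, 110 and 21.6 CPM against 11.6, 9.88 and 9.82 CPM (2.09 ± 0.21, edgeR adjusted p = 1.2e-08). CEACAM5, the carcinoembryonic antigen, had 95.3, 101 and 70.0 CPM against 32.1, 29.3 and 36.0 CPM (1.37 ± 0.12). CEACAM6 had 268, 288 and 168 CPM against 103, 101 and 80.0 CPM (1.30 ± 0.08). These genes did not overlap between the classes, yet they came from a minority of cells. MUC1 was detected in 72 responding cells, 24.8% against 14.3% of lower-score cells, and CEACAM6 in 38.6% against 38.7%. Responding cells had fewer UMIs per cell, so these shares are not a like comparison. In thinned cells CEACAM6 was detected in 34.7%, 28.6% and 23.5% of parental, single-positive and double-positive responding cells. In thinned lower-score cells it was detected in 24.0%, 27.0% and 17.4%, so the single-positive shares were close.

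This group was also tested against excluded cells. Of 32 tested members 9 were higher and 4 lower against excluded cells. MUC1 had 16.6, 12.4 and 7.56 CPM in excluded cells (1.90 ± 0.26, edgeR adjusted p = 0.0038) and CEACAM5 33.5, 34.7 and 31.4 CPM (1.35 ± 0.13, edgeR adjusted p = 0.00028). SPRR2D, of the cornified envelope, had 79.0, 42.8 and 279 CPM in responding and 40.1, 44.9 and 45.7 CPM in other cells. It was high in the double-positive and not in the single-positive library, and 1 cell held 32.1% of its UMIs in responding cells. SPRR3 had 23.3, 49.6 and 31.1 CPM against 13.6, 9.84 and 11.5 CPM. SPRR2E had 35.2, 3.42 and 163 CPM against 33.9, 32.7 and 30.9 CPM, and reads of the near-identical SPRR2 genes may be divided among them. The 2 lower genes were KRT5, a basal keratin with 602, 772 and 709 CPM against 721, 952 and 856 CPM, and S100A7, with 2 UMIs in all responding cells. S100A7 was rare elsewhere too, detected in 0.423%, 0.162% and 0.584% of thinned lower-score cells, so its fold change rests on few cells.

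Keratins and junction genes of the ductal lineage were higher in 7 of 9 cases, MUC1 among them, KRT7 by 0.30 ± 0.06, KRT8 by 0.39 ± 0.06, KRT19 by 0.17 ± 0.05 and CLDN4 by 0.88 ± 0.07. S100P had 0.91 ± 0.10, and KRT18 did not pass with -0.08 ± 0.05. Of these 9 genes, 5 were higher with G1 cells only and 2 within the shared depth range. LCN2, an iron-binding acute phase protein, had 1652, 808 and 1044 CPM in responding and 697, 607 and 529 CPM in other cells, and 795, 447 and 531 CPM in excluded cells. It was higher against both (0.91 ± 0.08 and 0.93 ± 0.08). LCN2, C15orf48 (0.62 ± 0.07), TNFAIP2 (0.70 ± 0.16), BIRC3 (0.64 ± 0.19) and SAA1 (0.57 ± 0.12) were the 5 of 30 NF-kB targets that were higher. NFKBIA, the inhibitor of NF-kB, was lower with -0.30 ± 0.08, as was CSF3, with 4 UMIs in responding cells. CSF3 was rare, detected in 1.27%, 1.38% and 1.46% of thinned lower-score cells and in 0%, 4.76% and 0% of thinned responding cells. The cytokines IL1A and IL1B had -0.09 ± 0.08 and -0.25 ± 0.08 and did not pass. With G1 cells only, 2 of 29 NF-kB targets were higher and 3 lower, with a median of -0.14. Within the shared depth range 1 of 27 was higher and 0 lower.

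Genes of the amino acid and unfolded protein response were higher in 10 of 16 members, with a median of 0.35. With G1 cells only, 4 of 16 were higher with a median of 0.21, and within the shared depth range 4 of 15 with 0.23. Excluded cells had 6 of 16 higher than lower-score cells, with a median of 0.36. Over all genes, 883 of 13702 were higher and 464 lower in excluded than in lower-score cells. DDIT3, a stress transcription factor, had 120, 122 and 143 CPM against 63.9, 50.01 and 47.4 CPM (1.26 ± 0.11). SESN2, which restrains mTORC1, had 46.4, 42.8 and 50.8 CPM against 21.9, 16.3 and 18.4 CPM (1.29 ± 0.12). Both were higher in every library, but in excluded cells DDIT3 had 147, 173 and 69.8 CPM, so its level there differed between libraries. ATF4 itself did not pass (0.22 ± 0.09, edgeR adjusted p = 0.17). Of 22 immediate early and heat shock genes 7 were higher, and the abundant chaperones HSP90AA1 and HSPA8 had 0.02 ± 0.05 and -0.11 ± 0.06. With G1 cells only, 3 of these 22 genes were higher, and within the shared depth range 0 of 20. Of 16 p53 targets 2 were higher, BBC3 by 0.45 ± 0.11 and PHLDA3 by 0.38 ± 0.09, while CDKN1A had 0.18 ± 0.07 and did not pass. Of 13 mitochondrially encoded transcripts 2 were higher, MT-ND1 by 0.33 ± 0.08 and MT-CO1 by 0.22 ± 0.05. Within the shared depth range the list turned direction, with 0 of 13 called, a median of -0.33 and 1 of 13 above 0.

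Of 42 S phase genes 20 were lower and 0 higher, with a median of -0.43, and the median was below 0 in each library. Of 54 G2 and mitosis genes 9 were lower and 0 higher, with a median of -0.24. In the single-positive library this list went the other way, with a median log2 ratio of 0.07 and 30 of 54 genes above other cells, against -0.19 in the parental and -0.47 in the double-positive library. Over all genes, DESeq2 called 109 lower where edgeR called 368. PCNA, the replication clamp, had 152, 128 and 147 CPM in responding and 179, 199 and 206 CPM in other cells (-0.42 ± 0.08). TYMS, which makes thymidylate, had 41.2, 51.4 and 34.5 CPM against 63.6, 78.8 and 65.6 CPM (-0.75 ± 0.11). GINS2 of the replicative helicase had 29.1, 18.8 and 32.6 CPM against 47.4, 50.7 and 48.6 CPM. MYBL2, a factor of cell cycle genes, had 36.1, 51.4 and 32.0 CPM against 57.6, 74.2 and 56.3 CPM. The histone H1 gene HIST1H1B had 15.3, 25.7 and 14.4 CPM against 23.4, 41.9 and 31.1 CPM. The levels of PCNA, TYMS, GINS2 and MYBL2 did not overlap, while those of HIST1H1B did between libraries. Against excluded cells 0 of 41 S phase genes differed by edgeR, with a median of -0.15 and 14 of 41 above 0. The phases were called from these same lists of S phase and of G2 and mitosis genes. The larger G1 share and the lower lists are thus not independent of each other. Within G1 cells, themselves chosen by these genes, 6 of 41 S phase genes and 6 of 53 G2 and mitosis genes were lower.

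A few genes outside the lists were among the highest or lowest. CYP1A1, a target of the aryl hydrocarbon receptor, had 88.5, 20.5 and 17.6 CPM in responding and 20.6, 11.8 and 12.2 CPM in other cells (1.46 ± 0.18). It was also higher than in excluded cells (2.04 ± 0.23, edgeR adjusted p = 0.00092). PSCA, a surface antigen, had 6.07, 310 and 3.14 CPM against 6.79, 2.31 and 3.002 CPM. Its fold change of 2.82 ± 0.75 came from the single-positive library, where 1 cell held 86.2% of the UMIs of all responding cells, and without that library it was -0.085. G0S2, an inhibitor of lipolysis, had 41.9, 8.56 and 54.0 CPM against 101, 82.4 and 68.9 CPM (-0.99 ± 0.17). GJB2, a gap junction protein, had 29.1, 53.1 and 56.8 CPM against 66.9, 63.5 and 82.3 CPM (-0.73 ± 0.13). GOLIM4, a Golgi protein, had 19.5, 30.8 and 16.9 CPM against 29.8, 39.1 and 32.9 CPM (-0.71 ± 0.14). In each of G0S2, GJB2 and GOLIM4 the responding cells were lower in all 3 libraries.

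Other genes lowest against excluded cells were cytokines and a cytokine receptor. CCL3 had 1 UMI in the 290 responding cells and 14.5, 149 and 8.43 CPM in excluded cells. CCL3L3, a near-identical copy whose reads may be exchanged with CCL3, had 2 UMIs and 38.9, 88.6 and 5.53 CPM. In thinned cells CCL3 was detected in 2.27%, 5.88% and 1.85% of excluded cells and in 0.423%, 0.243% and 0.175% of lower-score cells. CCL3L3 was detected in 5.30%, 11.8% and 3.70% of thinned excluded cells. Their levels in excluded cells thus rest on few cells, and the part of single cells was not tested. IL7R, the receptor chain for interleukin 7, had 2.56, 5.14 and 6.59 CPM in responding and 88.1, 77.4 and 38.7 CPM in excluded cells (-3.76 ± 0.34, edgeR adjusted p = 0.00022).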

How the data were processed

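The deposited matrices hold raw counts of UMIs per gene and barcode for 3 libraries, with 33694 features and 737280 barcodes each. Build GRCh38, Seurat 4.0.6 and Cell Ranger 4.0.0 are named in the submitters' processing notes; which annotation was counted against is not stated there. Coordinates of promoters come from RefSeq on GRCh38.p14. The score, the lists and the members were chosen with earlier results of these data known.

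From the counts, cells were called and doublets were not removed, because that sort keeps cells carrying both signals. UMIs were summed per library and class (6 sums) and tested with edgeR 4.0.16 (filterByExpr by class, TMM, library as a block, adjusted p at most 0.05). Nothing in the labels says that the libraries are repeats, and the prior carried 30.05 degrees of freedom. Summed UMIs were scaled to 1000000. Named genes were the 8 rule genes, the 12 highest and 8 lowest called genes with at least 30 CPM, the 6 highest and 6 lowest against excluded cells, up to 6 most expressed members of each list, all ligands and receptors, and 18 genes added after their values were seen. Intervals are exact (Clopper-Pearson) at 95% and cover counting error only, since counts within a library share its cells.

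The test was checked on simulated data with the real means: for responding against other cells, run on 13623 genes, 100% of genes set 2-fold higher and 74% of those set 1.5-fold higher were called, and 0.0149% of unchanged genes. The simulation set the same spread for every gene and changed only better expressed genes. Its rates therefore do not cover genes whose UMIs come largely from 1 cell, such as PSCA. Alternatives changed scaling, tool, filter, block, libraries, depth, phase, score and cell call. Computation used R 4.3.3, Python 3.11.15, scanpy 1.11.5 and DESeq2 1.42.0. Results for some list members are not reported here.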

Additional observations from a re-analysis of the deposited data

Results flagged for a closer look

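In 3 named genes the libraries went opposite ways beyond counting error and by at least 0.5 on the log2 scale, comparing responding with other cells, a difference between libraries that was not tested. MMP7, a matrix protease, had 2.30 in the parental and 1.31 in the double-positive library but -1.94 in the single-positive library, where the 21 responding cells held 2 UMIs. SPRR2E had 0.052 in the parental, -3.26 in the single-positive and 2.39 in the double-positive library, and 1 cell held 39.4% of its UMIs in responding cells. IFIT2 had -0.13, -2.16 and 0.71 in the same order, with 8 UMIs in single-positive responding cells. In all 3 genes the single-positive value was the lowest.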

How the results depend on the processing

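No paired analysis was possible because each condition has 1 library, as far as pairing of libraries by replicate number goes; the 2 classes of cells were themselves paired within each library by the library block of the test. The 484 higher and 368 lower genes became 223 and 109 with DESeq2, 263 and 85 without the library as a block, 245 and 114 in thinned cells, 286 and 227 with ISG15 left out of the score, 274 and 118 in G1 cells, and 107 and 16 in the shared depth range. Leaving out 1 library gave 206 to 709 higher and 67 to 601 lower genes, lowest without the parental and highest without the single-positive library. There were 634 lower genes without the filter on low counts, 612 with the top 20% as score-high and 156 with cells chosen again after thinning. Against lower-score cells the counts were 267 and 127 after thinning and 141 and 16 in the shared depth range. The alternatives in the shared depth range, the thinned or depth-matched lower-score comparison and the stricter excluded cells were chosen after seeing the data.

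The number of interferon-stimulated genes higher was 35 to 60 when 1 library was left out, lowest without the parental library, and 27 in the shared depth range. Their median log2 fold change was 0.74 with cells chosen again after thinning, 0.82 against lower-score cells, 0.90 with the top 5%, 0.50 with the top 20%, 0.52 with ISG15 left out of the score, and 0.76 and 0.78 against lower-score cells thinned and in the shared depth range. The cause of these changes was not tested.

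Against excluded cells the 59 higher and 149 lower genes became 30 and 94 with DESeq2, 177 and 333 without the filter, and 94 lower after thinning. Leaving out 1 library gave 27 to 73 higher and 68 to 153 lower genes, both lowest without the parental library.

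The parental share of responding cells was 7.35% after thinning, 8.32% among G1 cells and 11.7% without the exclusion. The single-positive share was 2.87% after thinning and also with ISG15 left out, and 4.26% without the exclusion. The double-positive share was 7.84% after thinning, 7.99% without ISG15, 4.69% without IFI6, 8.61% in G1 cells and 11.7% without the exclusion. In each of these the single-positive share was the lowest.

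Of 81 named genes called, 69 kept their sign in every alternative that tested them and 19 were also called in each. PSCA ran from -0.085 without the single-positive to 4.38 without the parental library, and turned to -0.21 without ISG15 and -1.09 and -1.08 in the shared depth range. CXCL10 turned to 0.55 against lower-score cells (0.40 thinned, 0.20 in the shared depth range) and 0.23 with the top 5%. IFIT2 ran from -0.55 without the double-positive to 0.32 without the single-positive library and had -0.94 with the top 20%, where OASL had -0.39. SPRR2E had -0.084 with DESeq2 and ran from -0.37 without the double-positive to 1.52 without the parental library. With the top 5%, HSPA5 had -0.080, KRT17 -0.24 and MT-CO1 -0.15. MT-CO1 also had -0.034 without IFI6 and -0.39 in the shared depth range, against either set of cells. KRT13 had -0.0069 chosen again after thinning, -0.13 without ISG15, and -0.23 and -0.24 in the shared depth range. Chosen again after thinning, CCL3 had 0.16 and NFKBIA 0.013, and NFKBIA had 0.041 against lower-score cells in the shared depth range. S100A7 had 1.39 without IFI6, and without ISG15 BIRC3 had -0.12 and SAA1 -0.060. With 21 responding cells, the single-positive library limits what can be seen there.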
